A study of Beta vulgaris with 9 samples.

Results

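Ferritin-3 (LOC104905965) and the probable cadmium/zinc-transporting ATPase HMA1 (LOC104894889) are 2 of the 24351 gene identifiers in the expression table of sugar beet leaves under alkaline treatment. Both were named by gene identifier, and they were chosen by their levels in these same libraries, where the ferritin was low and the pump high in treated leaves. Their levels and differences are therefore given as a description, with no test, and the tests concern other genes.

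Ferritin is the iron store of the plastid. Its subunits assemble into a hollow shell that holds iron in a form that cannot react with oxygen, and in plants its transcript is known to be abundant when iron is plentiful and scarce when iron is short. HMA1 belongs to the P1B ATPases, pumps that use ATP to move metal ions across membranes. In Arabidopsis it sits in the chloroplast envelope and has been tied to the handling of zinc, copper and calcium there.

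Seedlings of the cultivar KWS0143 were grown in Hoagland solution and treated at 5 weeks of age with 75 mM of a mixture of Na2CO3 and NaHCO3 in that solution. Leaves were taken at 0 days (control), at 3 days (short-term, ST) and at 7 days (long-term, LT), with 3 libraries in each group, which the design text calls biological replicates. The sources used here do not give the number of plants behind a library. Untreated leaves were taken at day 0 alone, so the treatment cannot be told apart from leaf age or day of harvest. Hoagland solution supplies iron, zinc and copper to all 3 groups. The study gives a higher pH for the alkaline solution than for Hoagland solution, and the availability of metals at either pH was not tested. No metal content was measured in the files analysed here.

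Each gene was listed with 1 transcript. Ferritin-3 was XM_010694635.2, with 8 exons and 1233 nt, on the plus strand of the unplaced sequence NW_017567345.1 from 283591 to 286668. HMA1 was XM_010681244.2, with 13 exons and 2846 nt, on the minus strand of NC_025817.2 from 513516 to 522710. These coordinates are the deposited ones, on the authors' reference, with the build not given in the sources used here. No other gene and no lncRNA in the tables overlapped either of them. The study also measured HMA1 by qRT-PCR, and its primer pair is shown because it marks what that assay measured and a follow-up would measure. Both primers are 21 nt, written 5′ to 3′ in lower case with no part singled out, and their place in the transcript was not located.

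HMA1 forward primer: gtaccgtaaactccgtcgcat
HMA1 reverse primer: ccttcgcaaatccaaacactt

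Levels are FPKM, fragments per kilobase of transcript scaled to the mapped fragments of the library, so they can be compared between genes of different length. The summed FPKM was 1096069 to 1115393 in control, 1088388 to 1119080 in ST and 915463 to 1038379 in LT libraries. The tables hold no counts. In single-exon lncRNAs, however, FPKM multiplied by length fell on steps. In units of 0.5 steps, 60.3% to 64.3% of low values lay within 0.1 of a whole number. Evenly spread values would give 20%, but the step was chosen to fit these same values, so this is no test. Taking 1 full step as 1 fragment gave an approximate depth of 16.8 to 22.1 M fragments per library, with M for mega. The 17 leaf mesophyll markers (chlorophyll a-b binding proteins, Rubisco small chain and Rubisco activase) were above 0 in every library, and 3 root endodermis markers summed to at most 0.70 FPKM. The mesophyll sum was 40115 to 52960 FPKM in control, 25391 to 34631 in ST and 19863 to 29223 in LT leaves. It thus moved in the same direction as ferritin-3, and its part in the results was not tested. In whole leaves, fewer cells of a type and less RNA per cell cannot be told apart.

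Ferritin-3 was an abundant leaf transcript before treatment and was far lower at day 7. Its level was 64.2, 44.1 and 85.5 FPKM in control replicates 1 to 3, 13.6, 15.0 and 21.9 FPKM in ST, and 1.49, 2.71 and 6.99 FPKM in LT. The groups did not overlap. The lowest control library lay above the highest ST library, and the lowest ST library above the highest LT library. This separation is a description, because the share of all genes with 3 separate groups was not counted. The same holds for HMA1 and for each gene or lncRNA below whose groups did not overlap. The mean was 64.6 ± 20.7 FPKM in control (SD, n = 3), 16.8 ± 4.44 in ST and 3.73 ± 2.89 in LT, 3.84-fold lower than control at day 3 and 17.3-fold lower at day 7. Among the genes detected in a library, ferritin-3 stood at percentiles 93.1 to 96.3 in control, 77.9 to 85.3 in ST and 26.9 to 58.7 in LT.

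Relative to its mean, ferritin-3 varied most at day 7, with a coefficient of variation of 77.5% in LT against 32.1% in control leaves. There LT replicate 3 carried 6.99 FPKM against 1.49 FPKM in LT replicate 1. On the approximate depth these were about 177 and 34 fragments. The 95% Poisson interval of the lower value ran from 1.03 to 2.07 FPKM and that of the higher one from 5.99 to 8.08 FPKM. These intervals rest on the inferred depth and cover counting error only.

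HMA1 went the other way. Its level was 17.9, 12.3 and 10.02 FPKM in control, 38.3, 53.9 and 34.5 FPKM in ST, and 88.0, 90.2 and 64.4 FPKM in LT. Again the 3 groups did not overlap, although the highest ST library and the lowest LT library lay close together. The mean was 13.4 ± 4.05 FPKM in control (SD, n = 3), 42.2 ± 10.3 in ST and 80.9 ± 14.3 in LT, which is 3.15-fold and 6.03-fold the control mean. HMA1 stood at percentiles 74.6 to 83.0 of the detected genes in control, 90.6 to 93.7 in ST and 94.1 to 96.1 in LT, in the range that ferritin-3 held in control leaves.

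**Figure D1:**
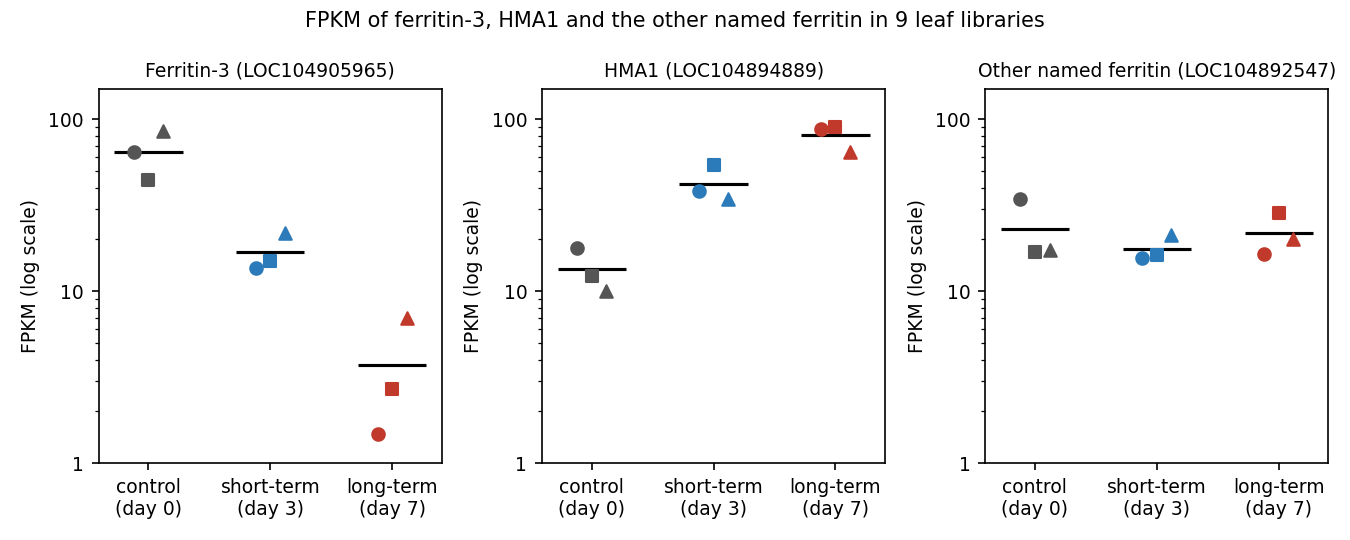
FPKM on a log scale (y axis) of ferritin-3, HMA1 and the other named ferritin in the 3 control, 3 short-term and 3 long-term libraries. Circles, squares and triangles are replicates 1, 2 and 3 and bars are group means. Ferritin-3 goes from 64.6 to 3.73 FPKM on average and HMA1 from 13.4 to 80.9, while the groups of the other ferritin overlap.

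The same differences were placed among all genes on a log2(FPKM + 1) scale, in a limma fit over 14491 genes. The median gene was itself higher by 0.11 at day 3 and by 0.26 at day 7, so relative differences are given, with that median subtracted. Ferritin-3 had a relative log2 difference from control of -1.97 (SE 0.41) at day 3 and -4.18 (SE 0.41) at day 7, the 16th and the 5th lowest of 14491. HMA1 had 1.49 (SE 0.24) and 2.27 (SE 0.24), ranks 108 and 212 from the highest. Between ST and LT leaves the relative difference was -2.21 for ferritin-3 and 0.78 for HMA1. In the whole table, 0.0759% of genes passed the test as higher and 0.0276% as lower at day 3, against 31.1% and 7.23% at day 7. Between LT and ST leaves 0% passed in either direction. These shares are the background for the counts of other genes, and nothing is read from them about ferritin-3 or HMA1.

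The split between higher and lower calls depended on the scaling. As deposited, 4505 genes were higher and 1047 lower at day 7. With libraries scaled by the median ratio, 1522 were higher and 1813 lower of 14462 tested. At day 3 the corresponding counts were 11 and 4, and 21 and 22 with the scaling.

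Within the pair, the balance of FPKM reversed between control and treated leaves. Ferritin-3 was 3.59, 3.59 and 8.53 times HMA1 in the control libraries. The ratio was 0.355, 0.278 and 0.634 in ST and 0.0169, 0.0300 and 0.108 in LT libraries. In LT replicate 1 there was 59.2 times as much HMA1 as ferritin-3, and in LT replicate 3 there was 9.22 times as much. In each of the 3 groups, the library with the most ferritin-3 was also the one with the least HMA1, which was replicate 3 every time. The opposite ends did not coincide in any group. The least ferritin-3 was in control replicate 2, ST replicate 1 and LT replicate 1. The most HMA1 was in control replicate 1, ST replicate 2 and LT replicate 2. Within groups the deviations of both genes had a Pearson r of -0.53 over the 9 libraries.

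**Figure D2:**
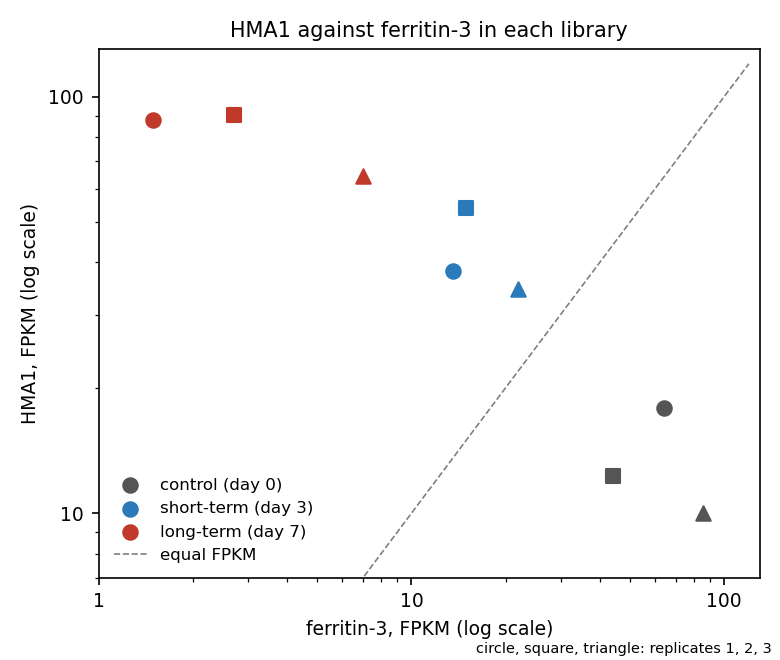
HMA1 (y axis) against ferritin-3 (x axis), both as FPKM on log scales, with 1 point for each of the 9 libraries and a dashed line of equal FPKM. The 3 control libraries lie below the line and the 6 treated libraries above it, with LT replicate 1 farthest from it at 59.2 times as much HMA1.

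A second gene carries the product name ferritin (LOC104892547), at a steadier level. Its FPKM was 34.3, 17.0 and 17.3 FPKM in control, 15.6, 16.1 and 21.1 in ST, and 16.5, 28.7 and 20.0 in LT. The groups overlapped, and limma gave an adjusted p of 0.94 for LT against control. Ferritin-3 made up 65.2% to 83.2% of the FPKM of both ferritins in control leaves, 46.5% to 50.9% in ST and 8.29% to 25.9% in LT. Summed over both ferritins, control leaves had 87.5 ± 22.96 FPKM (SD, n = 3), ST leaves 34.4 ± 7.47 and LT leaves 25.4 ± 6.86. The sources used here do not give how fragments that fit both genes were divided between them.

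Besides HMA1, 3 heavy metal ATPases had a product name, all of them named as copper pumps. PAA1 (LOC104904017), which in Arabidopsis brings copper into the chloroplast, had 7.88 ± 1.56 FPKM in control, 12.9 ± 3.56 in ST and 19.0 ± 2.13 in LT (SD, n = 3). It rose by 0.92 relative log2 units at day 7 (adjusted p = 0.0059). PAA2 (LOC104886560), which serves the thylakoid in Arabidopsis, had 14.2 ± 0.36 FPKM in control and 16.7 ± 3.00 in LT (adjusted p = 0.26). HMA5 (LOC104889963) had 1.78 ± 0.13 and 2.77 ± 0.93 FPKM (adjusted p = 0.087). HMA1 held 30.6% to 40.5% of the summed FPKM of the 4 pumps in control leaves, 52.8% to 59.5% in ST and 62.7% to 71.4% in LT.

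Across 11 lists of iron and metal genes, with ferritin-3 and HMA1 left out, 45 of 48 genes passed the filter on low values. At day 7, 12 of these were higher (26.7%) and 5 were lower (11.1%), against 31.1% and 7.23% of all genes. The shares were thus near the background, and the median relative difference of the lists was -0.10. With median ratio scaling the same lists held 6 higher and 11 lower genes, where 1522 of 14462 genes were higher and 1813 lower. Of the 17 calls, 11 were kept. At day 3 and between ST and LT leaves, limma called 0 of the 45. The counts at an unadjusted p under 0.05 were 6 higher and 4 lower at day 3. Between ST and LT leaves they were 9 higher and 5 lower. Of all 14491 genes, 2193 were higher and 1029 lower at day 3 by this measure, and 3239 and 774 between ST and LT leaves. Without control replicate 1 there were 4 calls at day 3, and without LT replicate 1 there were 6 between ST and LT leaves. At day 7 there were 11 calls without control replicate 2, control replicate 3 or LT replicate 2.

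The iron regulator bHLH47 (LOC104899754) was higher in all treated libraries than in any control library. Its Arabidopsis counterpart, POPEYE, is a transcription factor that acts when iron is short. The level was 5.32, 4.15 and 2.57 FPKM in control, 7.42, 9.41 and 7.70 in ST, and 19.1, 16.0 and 16.9 in LT. The 3 groups did not overlap, and the gene rose by 1.65 relative log2 units at day 7 (adjusted p = 0.0021). It was the single gene with a product name on the list of iron deficiency regulators.

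Iron transport and reduction held changes in both directions. The ferric reduction oxidase 8 gene (LOC104894346) rose from 4.70 ± 0.32 to 9.65 ± 2.56 FPKM at day 7 (adjusted p = 0.0085). Its relative FRO7 (LOC104897075), the chloroplast ferric reductase of Arabidopsis, had 103 ± 19.6 FPKM in control, 135.5 ± 17.6 in ST and 82.1 ± 17.8 in LT (adjusted p = 0.20). Solute carrier family 40 member 3 (LOC104890754), of the ferroportin family of metal exporters, fell from 22.9 ± 4.52 to 13.0 ± 1.63 FPKM (adjusted p = 0.0102). The metal-nicotianamine transporter YSL7 (LOC104891227) rose from 25.8 ± 5.93 to 48.1 ± 12.03 FPKM (adjusted p = 0.0166), a call lost with median ratio scaling (adjusted p = 0.071). YSL3 (LOC104888175) did not pass (adjusted p = 0.70), nor did the metal transporter Nramp6 (LOC104904879, adjusted p = 0.069).

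Zinc and manganese transporters were called higher in 3 of 6 cases and lower in 0 at day 7. Of all genes, 31.1% were higher and 7.23% lower. Median ratio scaling gave the same counts, where 1522 of 14462 genes were higher and 1813 lower. Zinc transporter 4 (LOC104884321), a ZIP family carrier, had 41.4, 22.0 and 13.8 FPKM in control, 82.4, 101 and 93.7 in ST, and 128, 88.6 and 113 in LT. All treated libraries lay above all control libraries. The relative log2 difference was 1.82 (SE 0.33, adjusted p = 0.061) at day 3 and 1.91 (SE 0.33, adjusted p = 0.0050) at day 7. Metal tolerance protein 11 (LOC104886952), a manganese carrier in Arabidopsis, rose from 24.0 ± 7.97 to 52.1 ± 6.38 FPKM (adjusted p = 0.0084). Zinc transporter 6 (LOC104894782) rose from 8.10 ± 1.68 to 16.7 ± 4.02 FPKM (adjusted p = 0.0089). The other 3 did not pass, among them metal tolerance protein 10 (LOC104905658, adjusted p = 0.16).

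The list of copper delivery also holds plastocyanin, which uses copper rather than delivering it. Of the 4 genes listed, 2 fell and 1 rose at day 7, against 7.23% and 31.1% of all genes. With median ratio scaling 3 were lower and 0 higher, where 1813 of 14462 genes were lower and 1522 higher. Plastocyanin (LOC104883872), the copper protein that carries electrons to photosystem I, fell from 1475 ± 238 to 655 ± 110 FPKM (adjusted p = 0.0072). The copper chaperone for superoxide dismutase (LOC104892389) fell from 16.3 ± 2.71 to 7.93 ± 1.21 FPKM (adjusted p = 0.0063). The copper transport protein ATX1 (LOC109133520), a cytosolic copper chaperone, had 4.22 ± 0.82 and 6.88 ± 1.73 FPKM with an adjusted p of 0.0485, but 13 of 17 alternatives put it on the other side of the threshold. Of 3 phytochelatin synthase genes, which make metal-binding peptides, 1 passed as higher at day 7 (LOC104899198, adjusted p = 0.046), and 12 of 17 alternatives did not keep it.

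Iron-sulfur cluster assembly, a use of iron rather than a store, gave 2 higher and 2 lower genes of 16 tested, against 31.1% and 7.23% of all genes. With median ratio scaling the list held 0 higher and 5 lower genes, where 1522 of 14462 genes were higher and 1813 lower. The A-type carrier IscA-like 1 (LOC104905252) had 18.2, 22.6 and 18.6 FPKM in control, 15.3, 16.0 and 18.03 in ST, and 3.85, 6.21 and 9.10 in LT. It fell by 1.81 relative log2 units at day 7 (adjusted p = 0.0050), and its ST and control ranges were nearly adjacent. HCF101 (LOC104902163), an iron-sulfur scaffold of the chloroplast in Arabidopsis, fell from 80.9 ± 4.64 to 51.6 ± 6.40 FPKM (adjusted p = 0.0071). A frataxin gene (LOC104892089, adjusted p = 0.022) and the cytosolic factor NBP35 (LOC104899953, adjusted p = 0.029) passed as higher, and both calls were lost with median ratio scaling (adjusted p = 0.12 and 0.49). Of 5 heme genes, 1 of 2 genes named ferrochelatase-2, the enzyme that inserts iron into heme, passed as higher (LOC104888230). It had 8.84, 2.87 and 2.07 FPKM in control and 8.68, 15.8 and 24.1 in LT, so the groups overlapped (adjusted p = 0.023, lost in 7 of 17 alternatives). The other ferrochelatase-2 gene (LOC104904584) had 45.0 ± 4.58 and 35.9 ± 4.60 FPKM (adjusted p = 0.082). Median ratio scaling turned the heme list from 1 higher gene to 0 higher and 2 lower. These were LOC104904584 (adjusted p = 0.023) and the probable inactive heme oxygenase 2 (LOC104898747, adjusted p = 0.036). The scaled background is the same 1522 higher and 1813 lower of 14462 genes.

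**Figure D3:**
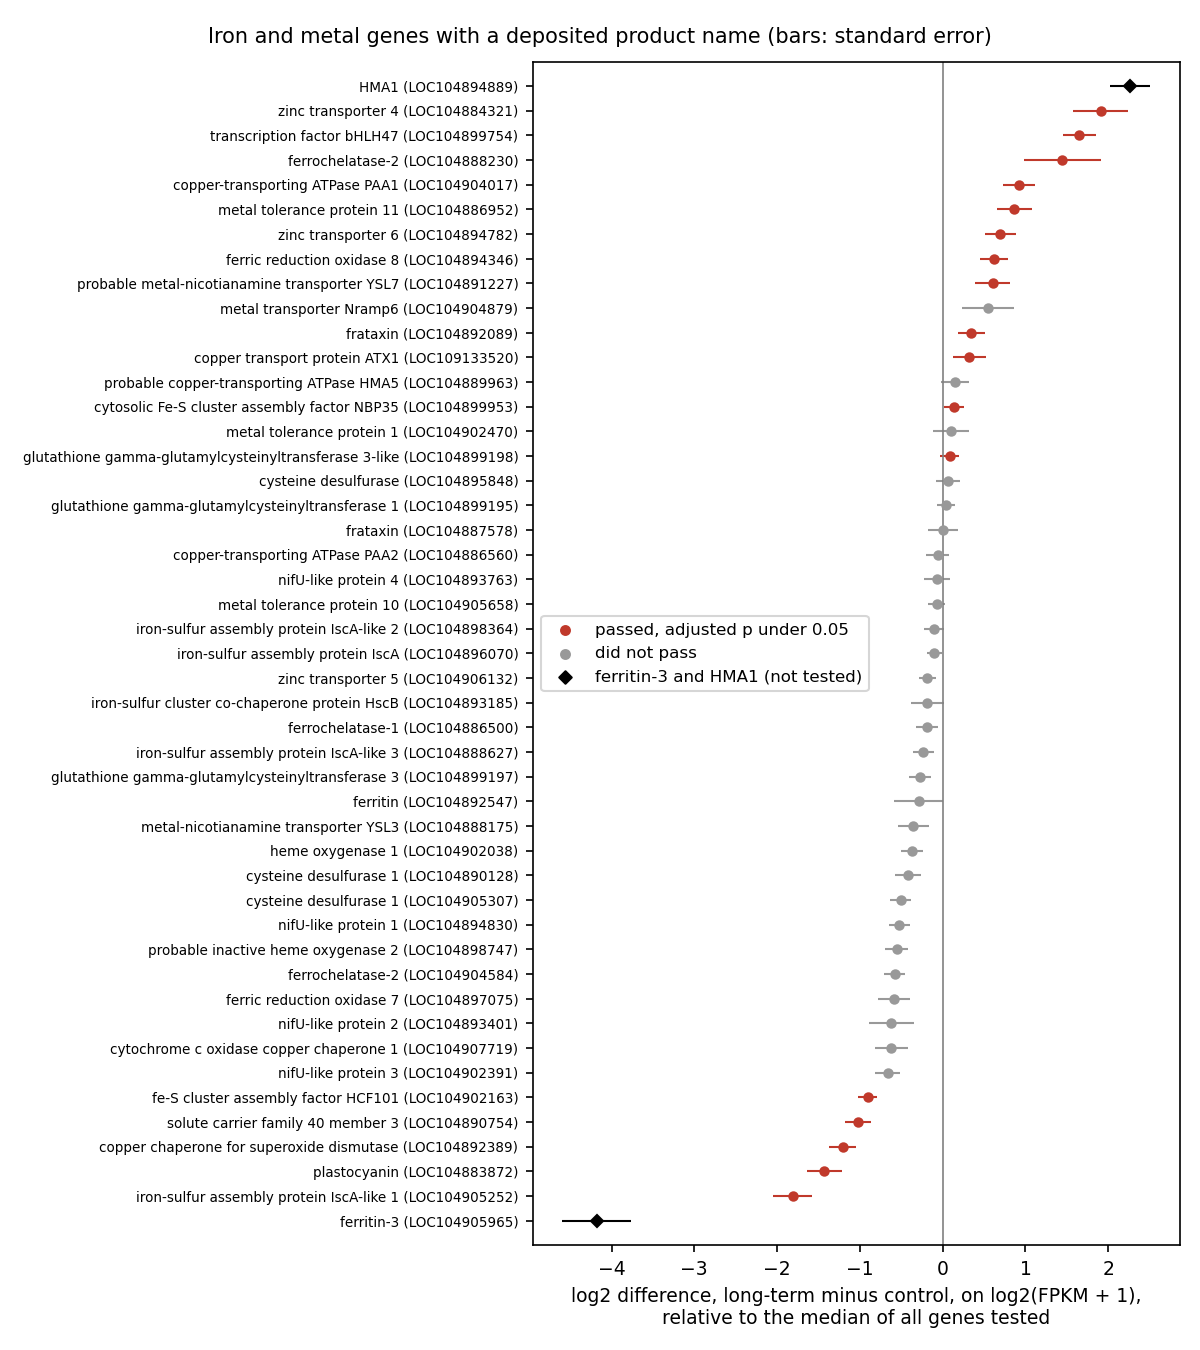
Relative log2 difference between LT and control leaves on log2(FPKM + 1) (x axis, bars are standard errors) for the 45 genes of the 11 iron and metal lists and for ferritin-3 and HMA1 (black diamonds, not tested). Red points passed the test, 12 above and 5 below. Ferritin-3 (-4.18) and HMA1 (2.27), which were chosen by their levels, lie at the 2 ends.

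Genes next to ferritin-3 and HMA1 took no part in choosing them, and their values are given beside those of the pair. Because the pair was chosen for its size of change, nothing is read from a neighbour differing less. Within 100 kb of ferritin-3 there were 16 genes, 13 of which passed the filter. Their relative differences at day 7 ran from -1.09 to 0.60, against -4.18 for ferritin-3. Of the 13, 3 were called higher and 1 lower, where 31.1% and 7.23% of all genes were. Median ratio scaling gave 1 higher and 3 lower, where 1522 of 14462 genes were higher and 1813 lower. The nearest gene, structural maintenance of chromosomes protein 2-1 (LOC104905966), began 2149 bp beyond the 3′ end and had 0.51 ± 0.086 FPKM in control and 0.62 ± 0.12 in LT (adjusted p = 0.48). On the other side the nearest gene (LOC104905963, 17136 bp away) was listed at 0 in every library, and the nearest tested one (LOC104905964, 18053 bp) did not pass (adjusted p = 0.41). The higher neighbours were LOC104905970, LOC104905972 and LOC104905971. The last of these, a multiple inositol polyphosphate phosphatase, rose from 4.41 ± 1.04 to 8.76 ± 1.52 FPKM (adjusted p = 0.012). With median ratio scaling the other 2 did not pass (adjusted p = 0.054 for LOC104905970 and 0.0999 for LOC104905972), while LOC104905962 (adjusted p = 0.014) and LOC104905958 (adjusted p = 0.048) passed as lower. The lower neighbour, LOC104905957, had 4.73 ± 1.21 and 2.24 ± 0.79 FPKM (adjusted p = 0.018).

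Around HMA1 there were 12 genes within 100 kb, 10 of which passed the filter, with relative differences from -1.31 to 0.09 at day 7 against 2.27 for HMA1. The nearest genes, LOC104894890 (2465 bp beyond the 5′ end, adjusted p = 0.088) and LOC104894888 (3348 bp beyond the 3′ end, adjusted p = 0.42), did not pass. Of the 10, 0 were called higher and 1 lower, where 31.1% and 7.23% of all genes were. Median ratio scaling gave the same counts, where 1522 of 14462 genes were higher and 1813 lower. The single neighbour that passed was the aminomethyltransferase LOC104894893, a subunit of the glycine cleavage system of photorespiration, 54754 bp away. It fell from 538, 659 and 727 FPKM in control to 329, 288 and 307 in LT (adjusted p = 0.0047). At day 3 and between ST and LT leaves, limma called 0 neighbours of either gene. At an unadjusted p under 0.05 there were 5 of 13 near ferritin-3 and 2 of 10 near HMA1 at day 3. Between ST and LT leaves there were 2 near each. By the same measure 2193 of all 14491 genes were higher and 1029 lower at day 3, and 3239 and 774 between ST and LT leaves. A fit of control and ST libraries alone called 1 neighbour at day 3. At day 7 the 5 calls became 3 without control replicate 3 or without LT replicate 2, and 8 without LT replicate 1. There were also 6 lncRNAs near ferritin-3 and 8 near HMA1, none over the filter, with at most 0.81 and 0.73 FPKM in any library. In the RefSeq annotation of another assembly, EL10.2, LOC104905966 and LOC104894890 also stood next to ferritin-3 and HMA1. On the other side stood the lncRNA LOC130590630 and the protein-coding gene LOC130591717, respectively, not the nearest genes given above.

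**Figure D4:**
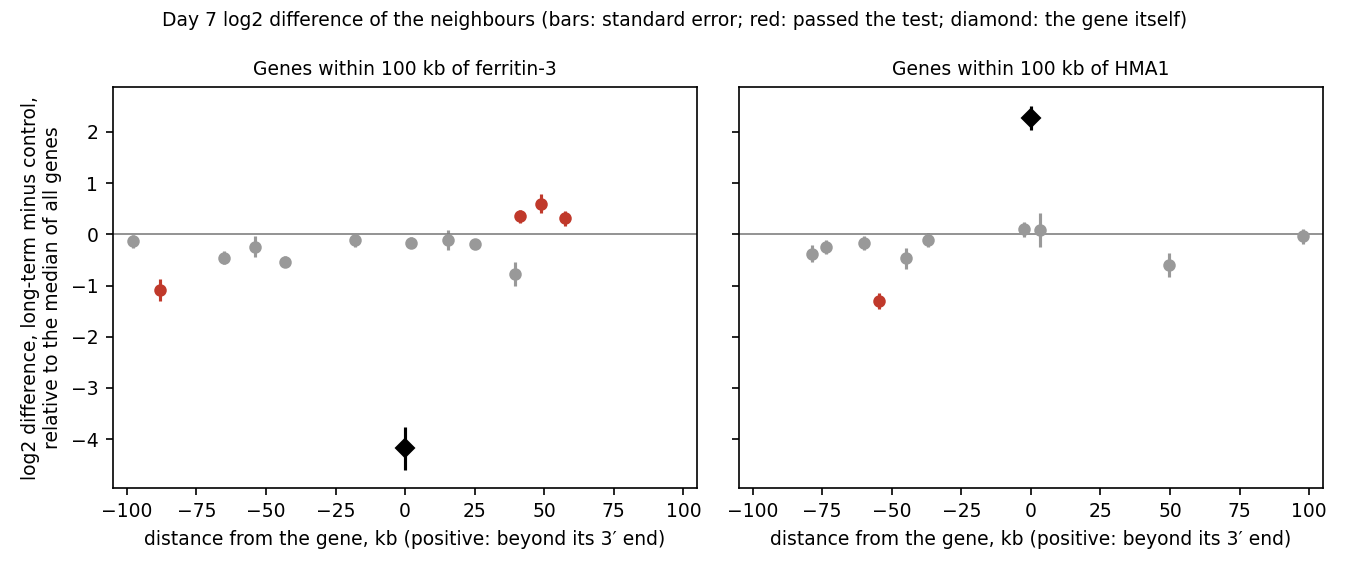
Relative log2 difference between LT and control leaves (y axis, bars are standard errors) against the distance in kb from ferritin-3 (left) or HMA1 (right), with positive distances beyond the 3′ end. Red points passed the test and black diamonds are the 2 genes themselves, at -4.18 and 2.27. The neighbours lie between -1.31 and 0.60.

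The study names HMA1 as a potential target gene of the lncRNA LNC_008363. It also measured this pair by qRT-PCR, and reports both RNAs as upregulated under short-term and long-term treatment. LNC_008363 had 9.45, 9.78 and 10.1 FPKM in control, 13.3, 14.5 and 14.7 in ST, and 24.1, 19.7 and 19.0 in LT. Its groups did not overlap either, and its LT mean was 2.14-fold the control mean where that of HMA1 was 6.03-fold. Within groups the deviations of both RNAs had a Pearson r of 0.12 over the 9 libraries, so the shared course lay between the groups. It was not among the lncRNAs within 100 kb of HMA1.

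Genes with the most similar course were sought by Pearson r over the 9 libraries on log2(FPKM + 1), among 12951 genes with a mean of at least 1 FPKM, and the 5 highest of the 4080 with a product name are given for each gene. Nitrite reductase and histone deacetylase 2 ranked first among all 12951, and some unnamed genes ranked above the others. Since the points are the same 9 libraries in 3 groups, r is a description with no test. For ferritin-3 the most alike was ferredoxin–nitrite reductase (LOC104891570, r = 0.980), the plastid enzyme that reduces nitrite with an iron-sulfur cluster and a siroheme. Its mean was 126 ± 12.3 FPKM in control, 61.9 ± 3.43 in ST and 34.5 ± 7.19 in LT. Next was glutamyl-tRNA reductase 1 (LOC104905095, r = 0.978), which opens the pathway to chlorophyll and heme, with 144 ± 15.9, 66.02 ± 5.40 and 30.4 ± 7.56 FPKM. An omega-3 fatty acid desaturase (LOC104903256, r = 0.966), an acetyltransferase (LOC104905785, r = 0.965) and the probable L-ascorbate peroxidase 6 (LOC104891011, r = 0.961) followed. In all 5 the group means were lower at day 3 than in control and lower again at day 7, by smaller ratios than in ferritin-3. Ferritin-3 and HMA1 were chosen by their levels, so nothing is read from these genes, or those below, differing less.

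For HMA1 the most alike was histone deacetylase 2 (LOC104884221, r = 0.994), which removes acetyl groups from histones, with 2.102 ± 0.26 FPKM in control, 3.27 ± 0.20 in ST and 4.32 ± 0.22 in LT. The phosphate transporter PHO1 homolog 1 (LOC104896336, r = 0.983), of a family that exports phosphate, came closest in size of change, with 1.41 ± 1.08, 4.17 ± 0.71 and 8.09 ± 1.11 FPKM. The nuclear export receptor EXPORTIN 1A (LOC104888024, r = 0.984), an E3 ubiquitin ligase related to BIG BROTHER (LOC104902556, r = 0.981) and suppressor of white apricot (LOC104883379, r = 0.978) had the same order of group means at smaller ratios. EXPORTIN 1A went from 9.43 ± 0.37 to 11.6 ± 0.48 FPKM, a relative log2 difference of 0.01, so that its level differed by as much as that of the median gene.

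**Figure D5:**
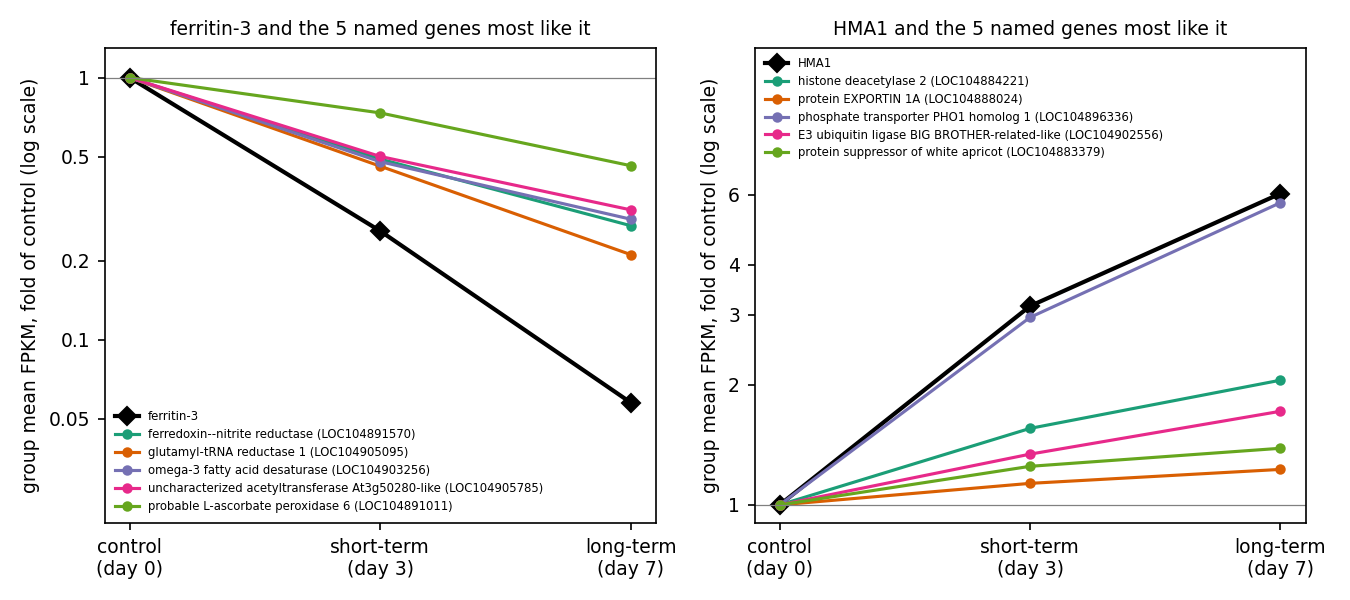
Group mean FPKM as a fold of the control mean (y axis, log scale) at days 0, 3 and 7 for ferritin-3 (left) and HMA1 (right), each in black with the 5 genes of highest r over the 9 libraries, among those with a product name, in colour. Ferritin-3, which was chosen by its levels, falls below all 5 of its genes, and PHO1 homolog 1 lies closest to HMA1 (6.03-fold at day 7).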

How the data were processed

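RNA was sequenced from 9 sugar beet leaf libraries after removal of ribosomal RNA, with a strand-specific kit. The authors aligned fragments with HISAT2 and assembled transcripts with StringTie 1.3.1 (submitters' processing notes), and deposited FPKM per transcript and library, which their methods credit to Cuffdiff. Columns of the authors' own comparisons were not used. The deposited tables also give each transcript's position, strand, exon number and length.

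FPKM was summed per gene identifier and set on log2(FPKM + 1). Genes with a group mean over 0.5 FPKM in at least 1 group (14491) entered limma 3.58.1 (R 4.3.3) with group means over all 9 libraries and a trended prior. P-values were two-sided and adjusted by Benjamini-Hochberg over all 14491 genes, with a threshold of 0.05, and test the difference before the median is subtracted. Replicates are the libraries of a group. P-values set the difference between groups against the spread between replicates, pooled over the 3 groups and moderated over all genes. The fit was tested on simulated data.

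The 11 lists were matched by words in the deposited product name, which 6515 identifiers carry (5224 other than hypothetical or uncharacterized), so unnamed metal genes are missed. The genes and lists were chosen with earlier results of these data known. Named were up to 4 genes of each list with the smallest day 7 p, the 5 most alike named genes, the neighbours that passed and the nearest on each side. The phloem marker list matched 0 genes. Alternatives were other pseudocounts, filters and scalings, a replicate block, fits of 2 groups, and each library left out. Drawing used matplotlib 3.10.9.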

Additional observations from a re-analysis of the deposited data

How the results depend on the processing

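Ferritin-3 and HMA1 kept their direction under all 17 alternatives in each comparison. The pair was chosen by these levels and its groups did not overlap, so this was largely fixed in advance and is a description only. Leaving out 1 library moved the relative log2 difference of ferritin-3 between -4.67 and -3.80 at day 7 and between -2.21 and -1.71 at day 3, and that of HMA1 between 2.12 and 2.47 and between 1.29 and 1.67. Against ST leaves the LT ranges were -2.70 to -1.82 and 0.64 to 0.99. The counts of genes called changed with the setting, and the cause was not tested. Of 15 genes at day 3, there were 9 with no filter, 43 with median ratio scaling, 50 in a fit of the compared groups only, and 0 to 522 without 1 library (522 without control replicate 1, 153 without LT replicate 3). Of 5552 genes at day 7, there were 3335 with median ratio scaling, 3332 in a fit of the compared groups only and 2323 to 5782 without 1 library. Between LT and ST leaves limma called 0 (at an unadjusted p under 0.05, 3239 higher and 774 lower), 4 with the compared groups only, and 0 to 1270 without 1 library (1270 without LT replicate 1, 310 without control replicate 1). For the iron and metal lists, leaving out 1 library gave 0 to 4 calls at day 3, 11 to 20 at day 7 and 0 to 6 between LT and ST. For the neighbours it gave 3 to 8 at day 7, and a fit of control and ST only gave 1 at day 3.

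Deviations of same-numbered libraries had r from -0.63 to -0.14 between control and treated groups, and from 0.02 to 0.37 between ST and LT. Between libraries of different number, r ran from -0.38 to 0.56. Whether a number marks anything shared by its libraries was not tested. With the replicate block 1 gene was called at day 3, 3246 at day 7 and 3 between LT and ST. The block kept 13 of the 17 list calls and 4 of the 5 neighbour calls at day 7.

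Depth limits the precision of ferritin-3 at day 7, with about 34 fragments in LT replicate 1. The counting intervals of LT replicates 1 and 3 nevertheless did not overlap. Group sizes of 3 and a single day 0 control limit every comparison.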
